A study of Homo sapiens with 6 samples.

Results

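Guanylate-binding proteins and the genes usually read with them as targets of interferon-gamma were examined in T24 cells carrying an empty vector and in T24 cells overexpressing RNF112 (oeRNF112). The members were set by a list of names, with no threshold on their values. They were the guanylate-binding proteins GBP1, GBP2, GBP3, GBP4 and GBP5, the chemokines CXCL10 and CXCL11, the tryptophan-degrading enzyme IDO1, and the PD-1 ligands CD274 (PD-L1) and PDCD1LG2 (PD-L2). All 10 were found among the 23152 genes of the deposited table, and 8 of them had enough reads to be tested.

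T24 cells are an established line from a human bladder cancer, and RNF112 is a RING-type E3 ubiquitin ligase. Messenger RNA of 3 vector samples and of 3 oeRNF112 samples was sequenced, and no interferon or other cytokine is named as a treatment in either group. The labels name overexpression, their protocol speaks of siRNA transfected with Lipofectamine, and the paper's methods describe both a plasmid and a lentiviral line. Which of these was sequenced, and how long after transfection, is not given in the sources used here. The samples are not said to be separate cultures, so p-values measure only the spread between these samples, which may be technical.

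For RNF112 itself, 27, 19 and 24 reads were counted in vector against 29753, 36963 and 31712 in oeRNF112 (log2 fold change 10.37). Total counts lay between 40029547 and 41259569, so that a count of 0 allows up to 3 reads. On these plain totals this is a CPM between 0.0727 and 0.0749. These limits cover counting error only. All other CPM values here are scaled to library size with edgeR's TMM factors, which shifts the scale slightly. Of 14467 genes tested with edgeR's quasi-likelihood test, 18.1% had a Benjamini-Hochberg adjusted p under 0.05, 9.97% higher and 8.14% lower in oeRNF112, and the median log2 fold change was 0.00267. As a check of the label, 5 of 6 epithelial markers passed the filter and the keratins KRT7 and KRT18 had 31265 counts or more in every sample, whereas CDH1 had at most 1. Of the urothelial markers UPK2, UPK3A, KRT20 and TP63 had at most 7 counts, and GATA3, PPARG and FOXA1 passed the filter. EPCAM rose (log2 fold change 0.84), and KRT7, KRT18 and FOXA1 fell, by 0.48, 0.51 and 1.08 on the log2 scale. The FOXA1 call was kept without any single sample. EPCAM lost its call without vector replicate 1 or oeRNF112 replicate 2 or 3 (edgeR, adjusted p = 0.0583, 0.0506 and 0.0531), and KRT18 without replicate 1 of vector or oeRNF112 (0.0559 and 0.0590). KRT7 lost its call without replicate 1 or 3 of vector (0.0808 and 0.0675) or of oeRNF112 (0.0811 and 0.0717), and with limma on log2(RPKM + 1) or log2(RPKM + 0.1) (0.0608 and 0.0554).

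Interferon-gamma binds the receptor IFNGR1-IFNGR2, and the kinases JAK1 and JAK2 then start a signal that reaches GAS elements in the DNA of target genes. Among these is IRF1, itself a factor that binds interferon-stimulated response elements (ISRE), and many target genes carry both kinds of element. Guanylate-binding proteins are large GTPases of cell-autonomous immunity. CXCL10 and CXCL11 recruit T cells through the receptor CXCR3, IDO1 starts the breakdown of tryptophan to kynurenine, and CD274 and PDCD1LG2 engage the receptor PD-1 on T cells. In cancer cells this group of genes is commonly used as a sign of exposure to interferon-gamma, while CD274 and the chemokines also respond to NF-kB.

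The 5 GBP genes lay in one cluster on the minus strand of chromosome 1 (GRCh38.p14), from GBP3 (89006680 to 89022866) through GBP1 (89052319 to 89065208), GBP2 (89106132 to 89126114) and GBP4 (89181144 to 89198942) to GBP5 (89256189 to 89272860). CXCL10 (76021118 to 76023497) and CXCL11 (76033682 to 76036070) were neighbours on the minus strand of chromosome 4. CD274 (5450542 to 5470554) and PDCD1LG2 (5510531 to 5571282) were neighbours on the plus strand of chromosome 9.

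RefSeq promoter windows, from 250 bases before to 50 bases after the start of the gene, were matched for 6 of the 10 members (GBP1, GBP3, GBP4, CXCL10, CXCL11 and CD274). Windows of GBP2, GBP5, IDO1 and PDCD1LG2 were not used here. On both strands, the ISRE core letters GAAANNGAA stood in 5 of the 6 windows and in 8.11% of all 35116 promoter windows of the same length. The GAS letters TTCNNNGAA stood in 3 of 6 against 7.66%, and the kB consensus, the binding site of NF-kB, in 3 of 6 against 11.3%. The 250 bases before the start of 3 members are shown because these genes had different outcomes below, CD274 higher, GBP1 not past the threshold and CXCL10 near 0 counts, with an ISRE match in each. Letters in capitals mark the matches.
CD274, chr9:5450292-5450541, plus strand: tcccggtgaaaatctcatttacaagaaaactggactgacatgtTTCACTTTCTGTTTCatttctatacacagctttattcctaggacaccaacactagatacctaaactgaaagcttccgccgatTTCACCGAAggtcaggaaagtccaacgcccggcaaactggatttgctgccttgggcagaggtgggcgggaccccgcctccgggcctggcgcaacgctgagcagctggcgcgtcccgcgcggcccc
GBP1, chr1:89065209-89065458, minus strand: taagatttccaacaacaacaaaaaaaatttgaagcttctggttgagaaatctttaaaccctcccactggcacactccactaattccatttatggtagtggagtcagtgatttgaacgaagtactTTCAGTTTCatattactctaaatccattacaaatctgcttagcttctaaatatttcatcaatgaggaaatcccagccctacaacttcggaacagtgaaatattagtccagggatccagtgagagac
CXCL10, chr4:76023498-76023747, minus strand: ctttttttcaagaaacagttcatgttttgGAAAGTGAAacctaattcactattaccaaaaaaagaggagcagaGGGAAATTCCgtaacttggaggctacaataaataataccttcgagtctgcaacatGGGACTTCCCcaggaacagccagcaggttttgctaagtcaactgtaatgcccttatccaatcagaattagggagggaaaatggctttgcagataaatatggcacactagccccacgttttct
Counted from the start of the gene, the first bases of the overlapping ISRE matches of CD274 were at -207 and -201. A GAS match followed at -125, and no kB match lay in the CD274 window. GBP1 held ISRE matches at -126 and, past the printed stretch, at 38. CXCL10 held an ISRE match at -221 and kB matches at -177 and -122. In windows not printed, GBP3 had a GAS match at -15 and an ISRE match at 4, GBP4 a kB match at -45 and an ISRE match at -3, and CXCL11 GAS matches at -240 and 19 and a kB match at -76. These are matches of letters and not binding measured in these cells.

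Of the 8 members tested, CD274 and GBP5 were higher in oeRNF112, IDO1 was lower, and GBP1, GBP2, GBP3, GBP4 and PDCD1LG2 did not pass the threshold. Over all genes tested, 18.1% were called, 9.97% higher and 8.14% lower. GBP5 reached the filter only through its oeRNF112 samples, so that its passing the filter and its difference are not independent. The samples of the 2 groups did not overlap for GBP1, GBP5, CD274 and PDCD1LG2, higher in oeRNF112, and for IDO1, lower in oeRNF112. Over all genes tested, 36.8% did not overlap, 18.9% higher and 17.9% lower.

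**Figure D1:**
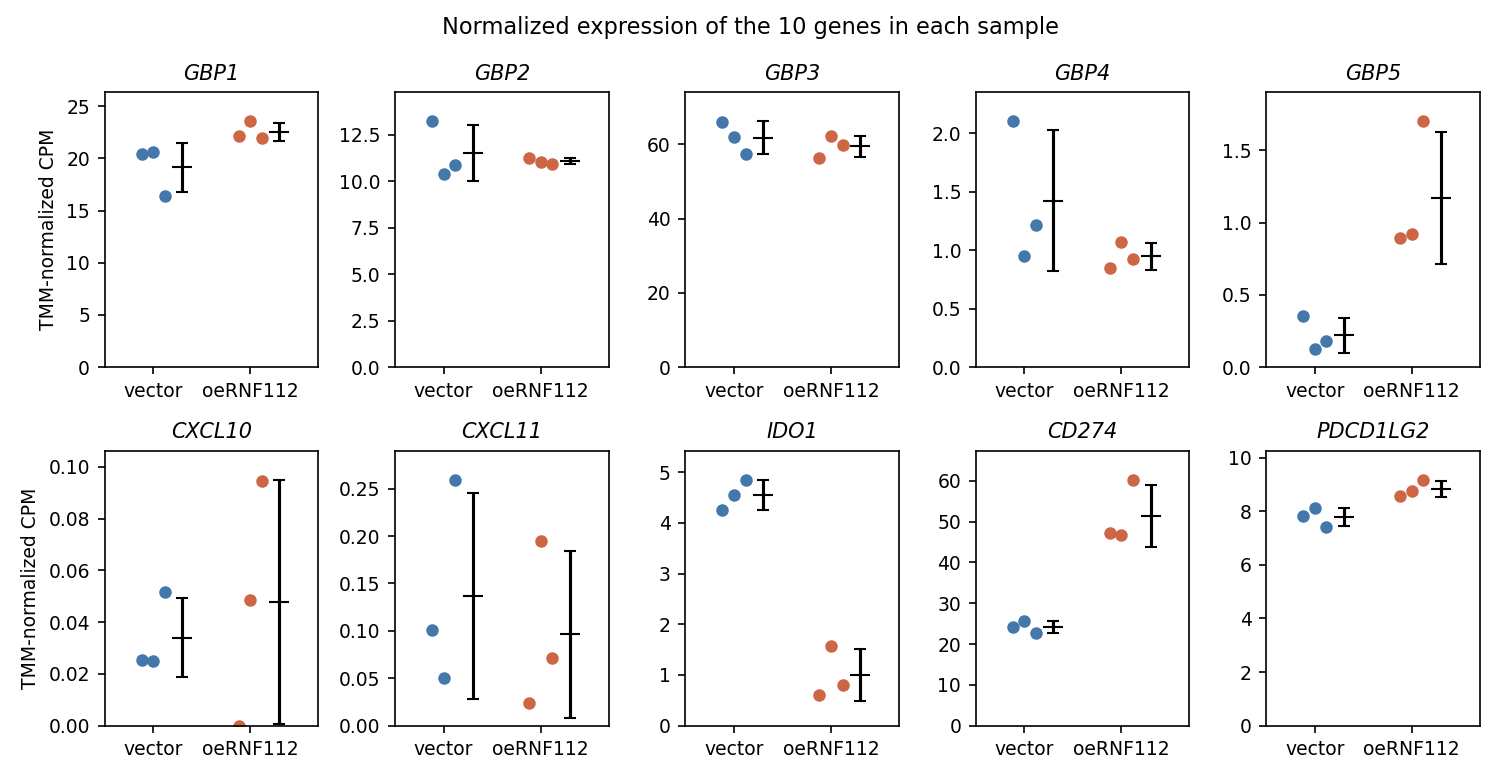
TMM-normalized CPM of the 10 genes in each of the 6 samples (points), with the group mean and SD (bars), each panel on its own axis from 0. CD274 and GBP5 lie higher and IDO1 lower in all 3 oeRNF112 samples than in any vector sample, while CXCL10 and CXCL11 stay under 0.3 CPM.

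Among the guanylate-binding proteins, GBP1 had 807, 824 and 632 counts in vector and 918, 967 and 928 counts in oeRNF112. Its CPM was 19.1 ± 2.38 (SD, n = 3) against 22.5 ± 0.870 (SD, n = 3). The groups did not overlap, but the fitted difference of 1.18-fold, with a 95% interval from 0.990 to 1.40, did not pass the threshold (edgeR, Benjamini-Hochberg adjusted p = 0.175). Intervals of fold changes here and below are for single genes and are not adjusted for the number of genes.

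GBP2 counts were 523, 416 and 420 in vector and 467, 453 and 464 in oeRNF112, with vector replicate 1 the highest of all samples. GBP3, the most abundant of the 5, had 2615, 2481 and 2217 counts against 2339, 2556 and 2532. Both genes overlapped between the groups, and their folds were 0.963 (95% interval 0.797 to 1.16) for GBP2 and 0.961 (0.836 to 1.11) for GBP3. The sign of either difference turned with library totals in place of TMM factors, with log2 fold changes of 0.04 in each. GBP4 counts were 83, 38 and 47 against 35, 44 and 39, where the high vector value came from replicate 1. The GBP4 fold of 0.665 had an interval from 0.404 to 1.10 and did not pass the threshold (edgeR, adjusted p = 0.233).

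GBP5, a member studied for its part in inflammasome assembly, had 14, 5 and 7 counts in vector and 37, 38 and 72 counts in oeRNF112. All oeRNF112 samples were above all vector samples, with replicate 3 the highest. Its log2 fold change was 2.40 (standard error 0.448, edgeR, Benjamini-Hochberg adjusted p = 0.00647), or 5.27-fold with a 95% interval from 2.64 to 10.5. The level stayed low in both groups, at an RPKM of 0.0311 in vector and 0.178 in oeRNF112. RPKM relates the reads to the length of the gene and the total count of the library, without TMM factors.

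Per length, the summed level of the 5 genes was 28.7, 27.6 and 24.2 RPKM in vector and 28.0, 29.6 and 29.4 RPKM in oeRNF112, so that the groups overlapped. In CPM, which uses TMM factors, the sums were 102, 94.1 and 86.1 in vector and 91.6, 98.7 and 95.3 in oeRNF112, also with overlap. GBP3 made up 65.4%, 65.9% and 67.2% of the RPKM sum in vector and 61.8%, 63.1% and 63.2% in oeRNF112. GBP5 made up at most 0.173% in vector and at most 0.890% in oeRNF112. Throughout, GBP3 and GBP1 together held most of the family total.

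Reads of this family can be shared between copies. Of all 50-base stretches in GENCODE v29 transcripts, 9.62% of those of GBP1 also stood in other genes, mostly the pseudogene GBP1P1, and 10.2% of those of GBP2, mostly in GBP7. The shares were 4.76% for GBP3, 4.03% for GBP4 and 0.396% for GBP5, and 0 for the members outside the family. Exons of GBP2 overlapped GBP7 on the same strand over 621 bases. Annotated antisense exons covered 138 bases of GBP4, 324 of GBP5 and 120 of IDO1, and the strand setting of the counting is not given in the sources used here.

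CXCL10 and CXCL11 were hardly detected. CXCL10 had 1, 1 and 2 counts in vector and 0, 2 and 4 counts in oeRNF112, and CXCL11 had 4, 2 and 10 counts against 1, 8 and 3. The groups overlapped for both genes, and neither passed the filter on low counts. Without the filter, the log2 fold changes were 0.47 for CXCL10 and -0.48 for CXCL11 (edgeR, adjusted p = 0.824 and 0.749). They rest on at most 4 and 10 counts per sample, most of them at or near the limit of 3 reads. A difference was not detectable at this depth. Of the other genes of this axis, CXCR3 and CXCL9 were not in the deposited table, and the scavenging receptor ACKR3 had at most 2 counts. DPP4, the peptidase that trims these chemokines, had 22, 23 and 25 counts against 54, 43 and 36, a difference that missed the threshold (log2 fold change 0.84, edgeR, adjusted p = 0.0688). It passed the threshold with library totals and with limma on log2(RPKM + 1) or log2(RPKM + 0.1).

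IDO1, on the plus strand of chromosome 8 (39913891 to 39928790), was the member that fell. It had 168, 182 and 187 counts in vector and 25, 65 and 34 counts in oeRNF112, and the highest oeRNF112 sample held fewer than the lowest vector sample. The CPM was 4.55 ± 0.299 (SD, n = 3) in vector and 0.996 ± 0.517 (SD, n = 3) in oeRNF112. The log2 fold change was -2.19 (standard error 0.298, edgeR, Benjamini-Hochberg adjusted p = 0.00141), leaving 0.219 of the vector level (95% interval 0.138 to 0.347). Since this is bulk RNA, fewer cells expressing a gene and less RNA per cell cannot be told apart, here and for every other gene.

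The other genes of tryptophan and kynurenine metabolism, together with the aryl hydrocarbon receptor that kynurenine can activate and its targets formed a list of 18. Of 12 tested, 2 were called higher and 0 lower, against 9.97% and 8.14% of all genes, and the median log2 fold change was 0.15. Without vector replicate 2, and with DESeq2, 2 were called lower. CYP1A1, a target of the receptor, had 11, 6 and 8 counts in vector and 37, 33 and 52 in oeRNF112 (log2 fold change 2.19, standard error 0.370, edgeR, adjusted p = 0.00392). Like GBP5, it reached the filter only through its oeRNF112 samples. TIPARP, another target, rose by 0.47 on the same scale (edgeR, adjusted p = 0.0117), a call lost without oeRNF112 replicate 1 (adjusted p = 0.0521). The 10 others lay between -0.41 and 0.88 with adjusted p-values from 0.0541 upward.

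CD274 was the member that rose with the most reads behind it. It had 952, 1028 and 874 counts in vector and 1957, 1925 and 2550 counts in oeRNF112. Every oeRNF112 sample exceeded every vector sample, at a CPM of 51.4 ± 7.62 (SD, n = 3) against 24.1 ± 1.53 (SD, n = 3). Its log2 fold change was 1.09 (standard error 0.119, edgeR, Benjamini-Hochberg adjusted p = 0.000463), or 2.13-fold with a 95% interval from 1.77 to 2.56.

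PDCD1LG2, the other PD-1 ligand and the next gene on the chromosome, had 309, 324 and 286 counts against 355, 360 and 388. The groups just failed to overlap, at a CPM of 7.78 ± 0.346 (SD, n = 3) and 8.83 ± 0.305 (SD, n = 3). The 1.14-fold difference had a 95% interval from 0.952 to 1.35 and did not pass the threshold (edgeR, adjusted p = 0.292). The 2.13-fold change of CD274 lies outside that interval.

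The ratio of CD274 to PDCD1LG2 counts within a sample does not depend on the scaling of the libraries. It was 3.08, 3.17 and 3.06 in vector and 5.51, 5.35 and 6.57 in oeRNF112. The groups did not overlap. This ratio and those given below were chosen after the values had been seen and are a description only.

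**Figure D2:**
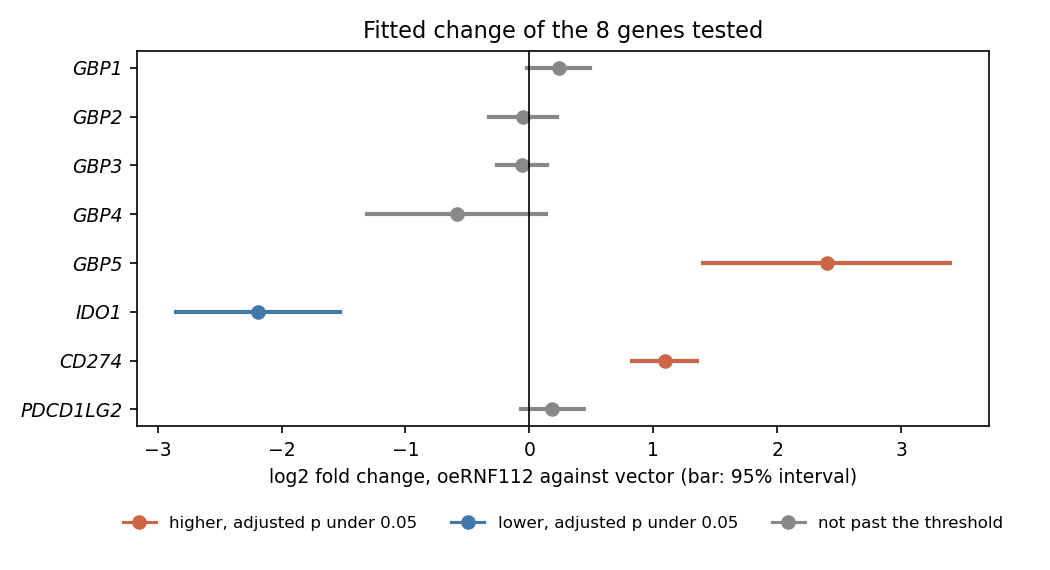
Fitted log2 fold change, oeRNF112 against vector, of the 8 members tested (points), with 95% intervals (bars) and colour by the test. CD274 at 1.09 and GBP5 at 2.40 lie above 0, IDO1 at -2.19 lies below, and the intervals of the 5 others include 0.

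Of 10 tested genes among the partners of the PD-1 ligands and the other B7-type ligands, 1 was higher and 1 was lower (10% each, close to the 9.97% and 8.14% of all genes), and the median log2 fold change was 0.02. Without vector replicate 2 or oeRNF112 replicate 2, 2 were higher. PVR, a ligand of the immune receptors TIGIT and CD226, rose from 2598, 2645 and 2553 counts to 3827, 4053 and 4013 counts (log2 fold change 0.53, standard error 0.0792, edgeR, adjusted p = 0.00223). CMTM6, which holds the PD-L1 protein at the cell surface, had 7749, 7708 and 6404 counts against 5914, 5825 and 6080. The log2 fold change was -0.37 (edgeR, adjusted p = 0.0184), a call that was lost with library totals (adjusted p = 0.0602) and with limma on log2(RPKM + 1) or log2(RPKM + 0.1) (adjusted p = 0.0560 and 0.0542). The CMTM6 call was also lost without vector replicate 1 (adjusted p = 0.112) and without oeRNF112 replicate 1, 2 or 3 (0.0787, 0.0520 and 0.0541). The receptor PDCD1 was not in the deposited table.

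Per length, the order of the members in vector was GBP3 at 17.7 ± 1.30 RPKM (SD, n = 3), CD274 at 6.23 ± 0.501, GBP1 at 6.13 ± 0.828, PDCD1LG2 at 2.98 ± 0.181, GBP2 at 2.72 ± 0.330 and IDO1 at 2.38 ± 0.159. The values of CD274 and GBP1 overlapped, as did those of PDCD1LG2 and GBP2. GBP4 followed at 0.223 ± 0.0921, and the means of CXCL11, GBP5 and CXCL10 were under 0.1 RPKM. From GBP4 on, the values of each gene overlapped those of the next. In oeRNF112 the order began with GBP3 at 18.2 ± 0.762, followed by CD274 at 14.2 ± 2.31, GBP1 at 7.69 ± 0.171, PDCD1LG2 at 3.61 ± 0.168 and GBP2 at 2.80 ± 0.0611, none overlapping the next. IDO1 at 0.553 ± 0.278 lay below these and above GBP5 at 0.178 ± 0.0723, which overlapped GBP4 at 0.159 ± 0.0172. CD274 thus did not overlap GBP1 in oeRNF112, as it had in vector.

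Few reads fell on the interferon ligands. IFNG was not among the genes of the deposited table, IFNB1 had at most 4 counts, and IFNL2 and IFNL3 had at most 2. IFNL1, a type III interferon, had 5, 4 and 2 counts in vector and 8, 25 and 10 counts in oeRNF112 and did not pass the filter. Its groups did not overlap, higher in oeRNF112, as for 18.9% of all genes tested. Without the filter its log2 fold change was 1.86 and missed the threshold (edgeR, adjusted p = 0.0794). IFNE, the only ligand tested, had 16, 42 and 29 counts against 41, 32 and 35, and overlapped between the groups.

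Of the 9 interferon receptors and kinases, all tested, 1 was higher (11.1%, near the 9.97% of all genes tested) and 0 were lower. The call was IFNLR1, the specific chain of the type III receptor. It had 132, 116 and 111 counts in vector and 179, 177 and 211 in oeRNF112 (log2 fold change 0.58, standard error 0.155, edgeR, adjusted p = 0.0301). This call was kept without oeRNF112 replicate 2 alone. It was lost without vector replicate 1, 2 or 3 (adjusted p = 0.0605, 0.0548 and 0.0717) and without oeRNF112 replicate 1 or 3 (0.0752 and 0.115). The 8 others, among them IFNGR1, IFNGR2, JAK1 and JAK2, had log2 fold changes between -0.20 and 0.13.

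Of 9 transcription factors tested, 3 were higher (33.3%, against 9.97% of all genes) and 1 was lower (11.1%, against 8.14%). The 5 others did not pass the threshold. Every list here was chosen with earlier results of these data known, so that the shares are a description only. The median log2 fold change was 0.26. IRF1 was the factor that fell, from 2786, 2598 and 2631 counts to 1644, 1623 and 1670 counts. Its log2 fold change was -0.78 (standard error 0.0830, edgeR, adjusted p = 0.000412), and its groups did not overlap.

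IRF7, a factor best known for type I interferon responses, rose from 1187, 1122 and 1233 counts to 2701, 3181 and 2564 counts (log2 fold change 1.17, edgeR, adjusted p = 0.000263). BATF2, which partners IRF1 in macrophages, rose from 38, 31 and 36 counts to 146, 151 and 100 counts (log2 fold change 1.84, adjusted p = 0.00122 in the same test). IRF9, the DNA-binding part of the type I and III interferon complex ISGF3, rose by a log2 fold change of 0.39 (edgeR, adjusted p = 0.0284). The IRF9 call was lost without vector replicate 1 and without oeRNF112 replicate 1 or 2 (adjusted p = 0.0902, 0.0819 and 0.0732). Of 8 inhibitors tested, 1 was higher (12.5%, near the 9.97% of all genes) and 0 were lower, with a second higher without vector replicate 2. The call was USP18, which dampens type I interferon signalling at its receptor. It rose from 345, 281 and 318 counts to 680, 954 and 843 counts (log2 fold change 1.31, edgeR, adjusted p = 0.000591).

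**Figure D3:**
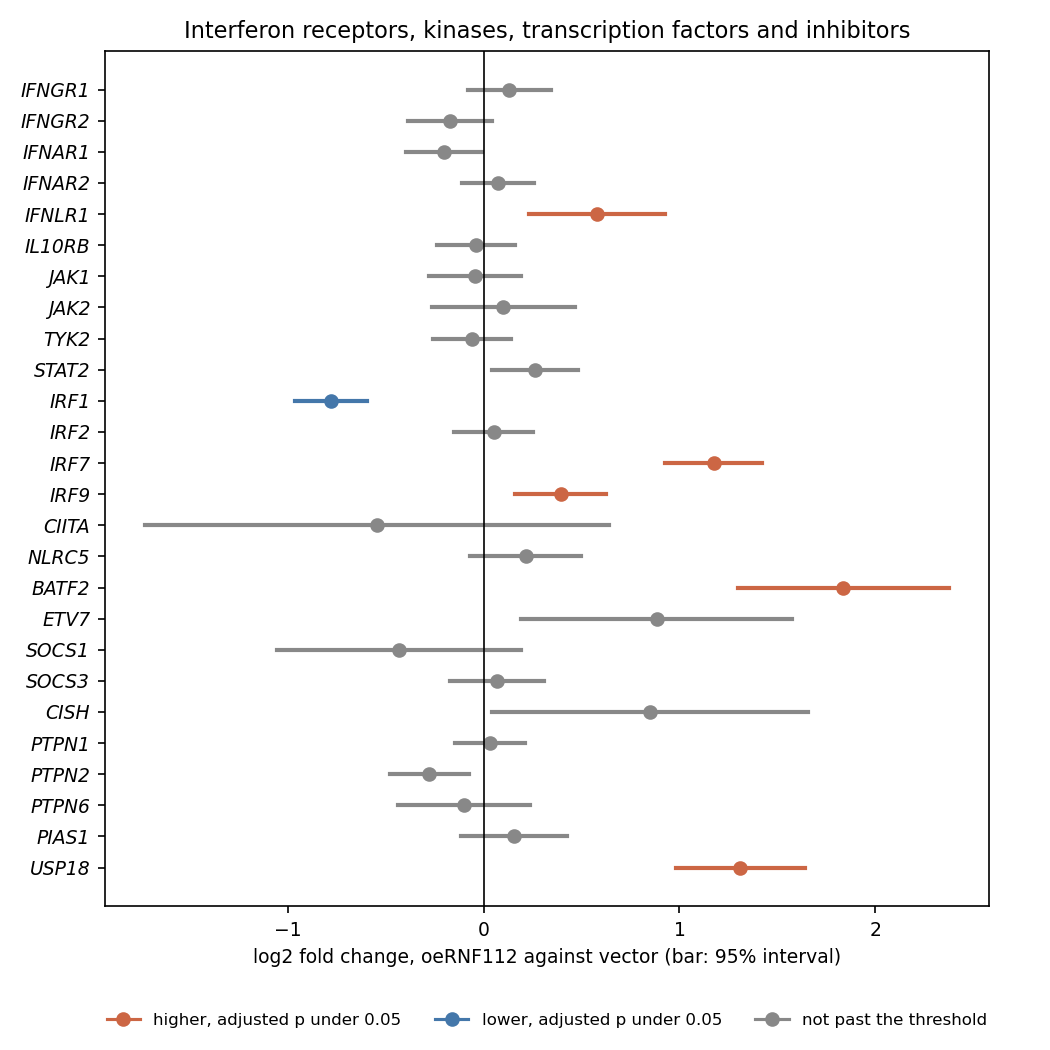
Fitted log2 fold change with 95% intervals for the tested genes of the interferon receptors and kinases, transcription factors and inhibitors, coloured by the test. IRF7, IRF9, BATF2, USP18 and IFNLR1 passed the threshold above 0, and IRF1 passed it below 0.

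Within a sample, IDO1 counts relative to IRF1 were 0.0603, 0.0701 and 0.0711 in vector and 0.0152, 0.0400 and 0.0204 in oeRNF112, so that IDO1 was lower also relative to IRF1. For the ratio of IDO1 to CD274, the values were 0.176, 0.177 and 0.214 against 0.0128, 0.0338 and 0.0133. Neither ratio overlapped between the groups.

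**Figure D4:**
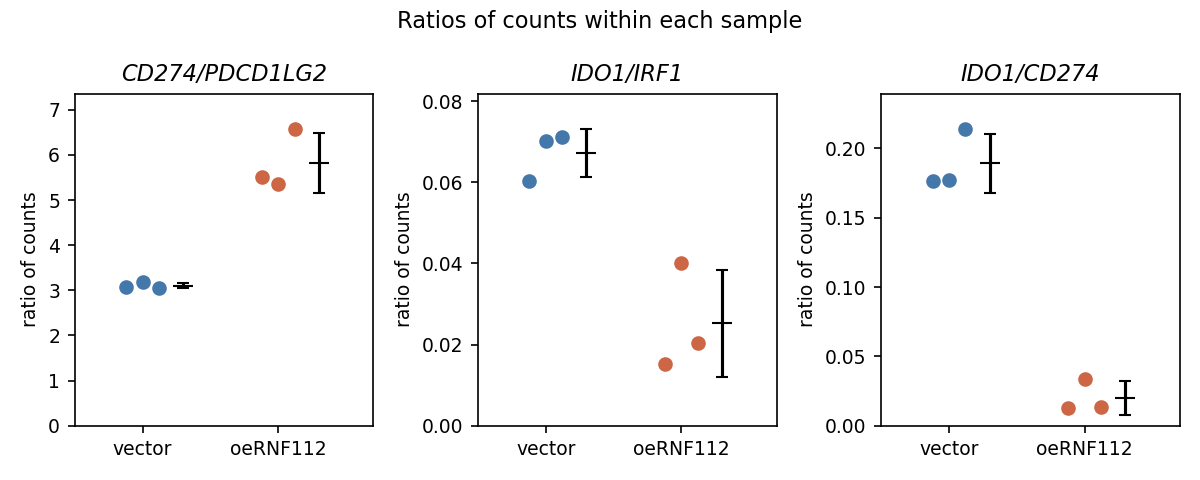
Ratios of counts within each sample (points) with group mean and SD (bars), each panel on its own axis from 0. CD274 to PDCD1LG2 is higher in every oeRNF112 sample, from 5.35 upward, and IDO1 to IRF1 and IDO1 to CD274 are lower, at 0.0400 and 0.0338 or below.

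Of 50 other genes known to be induced by interferon-gamma, 43 were tested, of which 10 (23.3%) were higher and 4 (9.30%) were lower. Their median log2 fold change was 0.12. The share called higher was above the 9.97% of all genes tested, and the share called lower was near the 8.14%. Since the list was chosen with earlier results of these data known, this is a description only. The count called lower was 2 without vector replicate 1, oeRNF112 replicate 1 or oeRNF112 replicate 3, and 8 without vector replicate 2. It was 2 with library totals and with limma on log2(RPKM + 1). With a replicate block, 6 were called higher and 1 lower. XAF1, a regulator of apoptosis, rose from 120, 106 and 65 counts to 389, 327 and 468 counts (log2 fold change 1.94, edgeR, adjusted p = 0.000545). GCH1, which starts the synthesis of tetrahydrobiopterin, rose by a log2 fold change of 0.99 (adjusted p = 0.000593). The nuclear body protein SP110 and the ADP-ribosyltransferase partner PARP9 each rose by 0.76 (adjusted p = 0.00106 and 0.00107), and the adhesion molecule ICAM1 rose by 0.51 (adjusted p = 0.00263). PSMB10, a subunit of the immunoproteasome, fell from 1354, 1070 and 1492 counts to 677, 802 and 515 counts (log2 fold change -1.05, edgeR, adjusted p = 0.00422). The 5 further genes called higher lay between 0.29 and 0.70, and the 3 further genes called lower between -0.50 and -0.40.

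Because CD274, CXCL10 and CXCL11 also respond to NF-kB, subunits, feedback genes and cytokines of that pathway were listed too. Of 12 tested, 6 (50%) were called higher and 0 lower, against 9.97% and 8.14% of all genes. The list was chosen with earlier results of these data known, so that these shares are a description only. The median log2 fold change was 0.38. The cytokine IL6 rose from 1645, 1377 and 1546 counts to 4406, 5376 and 5510 counts (log2 fold change 1.66, edgeR, adjusted p = 4.34e-05). IL1A and IL1B rose by 1.18 and 0.98 (adjusted p = 0.000402 and 0.000344), and the feedback inhibitor TNFAIP3 rose by 1.16 (adjusted p = 0.000283). BIRC3 rose by 0.47 and NFKB2 by 0.33 (edgeR, adjusted p = 0.0263 and 0.0306). BIRC3 lost its call without vector replicate 1 or 3 or oeRNF112 replicate 1 or 3 (adjusted p = 0.0726, 0.0674, 0.0729 and 0.0969). NFKB2 lost its call without any sample but vector replicate 3 (adjusted p between 0.0629 and 0.102). The 6 others did not pass the threshold (edgeR, adjusted p from 0.130 upward). Their log2 fold changes were -0.20 for NFKB1, 0.12 for RELA, 0.08 for RELB, 0.44 for REL, 0.03 for NFKBIA and 0.32 for TNF. The part of NF-kB in the values of CD274 was not tested.

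Leukocyte markers were read as a check for other cells. Of 10 in the table, 6 were tested, with CD68 higher (log2 fold change 1.21) and LAPTM5 lower (log2 fold change -0.88), and CD3E, CD4 and NKG7 had at most 5 counts in every sample. CD8A had 126, 131 and 121 counts against 151, 221 and 143, with no overlap but not past the threshold (edgeR, adjusted p = 0.223), and CD14 had 53 to 91 counts. The summed CPM of all 10 was 35.5 to 39.0 in vector and 58.6 to 75.2 in oeRNF112. Without CD68, left out after its value had been seen, the sum was 12.7 to 14.0 in vector and 8.95 to 11.9 in oeRNF112. PTPRC, the pan-leukocyte marker, had 54, 37 and 40 counts against 33, 24 and 26. LAPTM5 lost its call without vector replicate 1 or 3 or oeRNF112 replicate 2 or 3 (edgeR, adjusted p = 0.131, 0.0507, 0.0688 and 0.0949) and with library totals (adjusted p = 0.0520). The part of other cells in the values above was not tested.

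The genes beside the members on the chromosome did not pass the threshold. Among 17 neighbours, 12 were in the table and 8 were tested, where 18.1% of all genes tested were called. Next to the PD-1 ligands, PLGRKT had a log2 fold change of 0.10, ERMP1 of -0.22 and RIC1 of 0.39 (edgeR, adjusted p = 0.147). RIC1 passed the threshold without vector replicate 2 or oeRNF112 replicate 2 (adjusted p = 0.0193 and 0.0427). Beside the GBP cluster, RBMXL1 was at -0.25, KYAT3 at -0.27 and LRRC8B at 0.62, and GBP6 had at most 1 count. NUP54 and SCARB2, beside the chemokines, were at -0.08 and 0.10. ADAM18 and TCIM, beside IDO1, had at most 2 counts, and RLN1, near CD274, had at most 14.

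The mean pattern of the members overlapped between the groups. The mean of the centred log2 CPM of the 8 tested members was 0.15, -0.16 and -0.15 in vector and -0.10, 0.14 and 0.13 in oeRNF112. This mean combines CD274 and GBP5, which were higher, with IDO1, which was lower, so that opposite changes partly cancel in it. The genes whose pattern over the 6 samples was most like this mean, by Pearson correlation among 11559 genes, were ZNF709, NCBP2, GCFC2, SMAP1 and SDHAF3, and with 6 samples this is a description only.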

How the data were processed

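T24 RNA of 3 samples with empty vector and 3 with RNF112 overexpression was sequenced after a stranded mRNA library preparation. Per the submitters' processing notes, Trimmomatic 0.36 and featureCounts of Subread 1.5.1 were used with GRCh38. The aligner, the annotation and the strand setting are not given in the sources used here. The authors deposited whole-number read counts per gene, without normalization, and RPKM values, which equalled the count divided by gene length and column total for 15794 of 15794 genes compared (tolerance 0.001).

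Counts were filtered with edgeR 4.0.16 (filterByExpr, minimum count 10) in R 4.3.3, scaled with TMM factors and tested with glmQLFit and glmQLFTest, without covariates, with Benjamini-Hochberg adjustment over 14467 genes. The threshold was an adjusted p of 0.05. The scripts were tested on simulated data. The members and gene lists were chosen with earlier results of these data known. Named are all members, the chromosomal neighbours, RNF112, every called gene of the interferon receptor, transcription factor and inhibitor lists, and at most 6 called genes of each other list with the smallest p-values. IFNGR1, IFNGR2, JAK1, JAK2, DPP4, ACKR3, the interferon ligands, PDCD1 and uncalled NF-kB and marker genes are outside this rule. They were named after their values were seen. Alternatives were library totals, DESeq2 1.42.0, other filters, limma 3.58.1 on log2(RPKM + 1) or log2(RPKM + 0.1), a replicate block and each sample left out in turn. Promoter sequences came from RefSeq. No proteins were used here, and 1 gene of the lists is not reported.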

Additional observations from a re-analysis of the deposited data

How the results depend on the processing

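The calls of CD274 and IDO1 were kept in 8 of 8 alternatives and in 6 of 6 fits that left out a sample, and that of GBP5 in 7 of 7 and 6 of 6. GBP5 could not be tested with at least 10 counts in every sample, so that 2 rather than 3 members were called there. Its log2 fold change was 0.19 with log2(RPKM + 1) and 1.06 with log2(RPKM + 0.1), where the pseudocounts exceed its RPKM in all samples and in the vector samples, and that of IDO1 was -1.14 with log2(RPKM + 1). Leaving out a sample gave log2 fold changes from 2.03 to 2.93 for GBP5, from -2.67 to -1.93 for IDO1 and from 0.96 to 1.17 for CD274.

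Signs turned only in genes that were never called. For library totals, log2(RPKM + 1) and log2(RPKM + 0.1) the log2 fold changes were 0.0411, 0.0337 and 0.0458 for GBP2, 0.0362, 0.0358 and 0.0376 for GBP3, and 0.00970, 0.00954 and 0.0104 for NUP54. Leaving out a sample gave -0.12 to 0.0716 for GBP2 and -0.11 to 0.00600 for GBP3, both above 0 without vector replicate 1, and -0.0264 (without oeRNF112 replicate 2) to 0.18 for PLGRKT.

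With a replicate block, 876 genes passed the threshold (618 higher, 258 lower) and 17 in place of 30 of the fixed lists. Samples of the same number deviated from their group means with correlations of -0.116, -0.363 and -0.296 and were not taken as pairs. The block changed the call of IFNLR1, IRF9, TIPARP, CMTM6, NFKB2, BIRC3, EPCAM, KRT7 and KRT18. Library totals shifted the median of all genes from 0.00267 to 0.0962 and gave 2020 genes higher and 659 lower, and DESeq2 called 3243. Genes called lower were 669 with log2(RPKM + 1) and 682 with log2(RPKM + 0.1). Leaving out a sample gave 1061 genes without vector replicate 1 and as many as 3387 when vector replicate 2 was dropped, 702 to 1841 higher and 359 to 1546 lower, and from 19 (without oeRNF112 replicate 1) to 37 in the fixed lists. The cause was not tested. The 2 chemokines were limited by depth.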
